A study of Mus musculus with 12 samples.

Results

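Transcripts of 10 basement membrane genes were followed across mouse pluripotent stem cell lines and epiblast tissue: the laminin chains Lama1, Lama5, Lamb1 and Lamc1, the nidogens Nid1 and Nid2, the type IV collagen chains Col4a1 and Col4a2, perlecan (Hspg2) and Sparc. They were chosen by name out of 22180 genes measured, with earlier results of these data known. Shares over all genes are therefore set beside member counts as description only. Each gene was read by the probe set that carries its symbol alone. Where a gene has several such probe sets, which among these 10 is Nid1 only, the one with the highest mean over the 12 arrays was used.

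A basement membrane is a thin sheet of extracellular matrix on which epithelia rest. Laminin trimers of an alpha, a beta and a gamma chain polymerise at the cell surface, a type IV collagen network forms beside them, and nidogens and perlecan link the networks. In the early mouse embryo such sheets line the epiblast and the extraembryonic endoderm, and laminin contact is known for its role in epiblast polarity.

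RNA was measured on 12 arrays, 2 for each of 6 groups. Embryonic stem cells (ESC) came from E3.5 embryos and grew in N2B27 medium with LIF at 10 µg/ml, the GSK3 inhibitor CHIR99021 at 3 µM and the MEK inhibitor PD0325901 at 1 µM. Epiblast stem cells (EpiSC) were E5.75-derived. Their N2B27 medium held 20% serum replacement, 20 ng/ml of Activin A and FGF2 at 12 ng/ml. The rsEpiSC lines, which other labels call intrinsic state or IS-EPIs, came from E5.75 or E6.5 embryos and grew with the tankyrase inhibitor IWR1 at 2.5 µM plus 20 ng/ml of an agent whose name the labels omit. All lines were kept on mouse embryonic fibroblast feeders (MEFs). The remaining groups are epiblast tissue taken at E5.75 and at E6.5. The strain label of the first array is OCT4-deltaPE-GFP x C57BL/6, a cross that carries an Oct4 reporter. Strain and passage fields count up from array to array and were left aside. The labels do not state that the 2 arrays of a group are separate cultures or embryos, so a p-value here reflects the spread among these arrays alone, and that spread may be technical.

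Values are log2 signal, and each probe set has its own binding strength, so levels are compared between groups and not between genes. The table holds no detection calls, so a low signal cannot be told from background. In these bulk samples, fewer cells of a type and less RNA per cell cannot be told apart. Replicate arrays correlated at 0.943 to 0.988 over all genes. Signals were more compressed on tissue arrays, with interquartile ranges of 2.23 to 2.68 against 3.07 to 3.31 on arrays of cultured cells. Klf4, a naive pluripotency factor, was at 9.39 and 9.56 in ESC and at 5.34 or less on every other array. Fgf5, from a list of 4 post-implantation epiblast markers, was at 8.45 to 9.03 in tissue and at 6.88 or less in the lines. Dnmt3b also had its highest means in tissue, 11.51 and 11.60, against 10.02 or less in the lines. Otx2 and Pim2, the other markers listed, did not separate tissue from rsEpiSC this way. Otx2 averaged 9.29 for the E5.75 and 9.17 for the E6.5 rsEpiSC lines, against 9.31 and 9.03 in tissue of those stages. Pim2 had its highest mean, 9.27, for the E6.5 rsEpiSC lines, with tissue at 7.64 and 8.01.

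The mean log2 signal of the 10 genes was highest in ESC, at 7.79 and 7.87, and in EpiSC, at 7.51 and 7.71. It was 6.77 and 6.74 in rsEpiSC E5.75 and 6.29 on both arrays of rsEpiSC E6.5. Tissue had the lowest values, 5.77 and 5.72 at E5.75 and 5.96 and 5.87 at E6.5. No arrays overlapped between ESC, EpiSC, rsEpiSC and tissue on this mean. The highest group mean was in ESC for Nid1, Nid2, Lama1, Lamc1 and Hspg2. It was in EpiSC for Lama5, Lamb1, Col4a1 and Sparc, and in rsEpiSC E5.75 for Col4a2. The lowest was in ESC for Lamb1 and in tissue for the others. These ranks include steps between groups that did not pass, such as 0.09 between rsEpiSC E5.75 and EpiSC for Col4a2. The genes did not share a single order. Nid1, Nid2, Lama5, Lamc1, Hspg2 and Sparc were high in ESC and EpiSC and low in tissue. Lama1 was high in ESC alone, Lamb1 was highest in EpiSC, and the collagen chains showed no difference that passed.

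**Figure D1:**
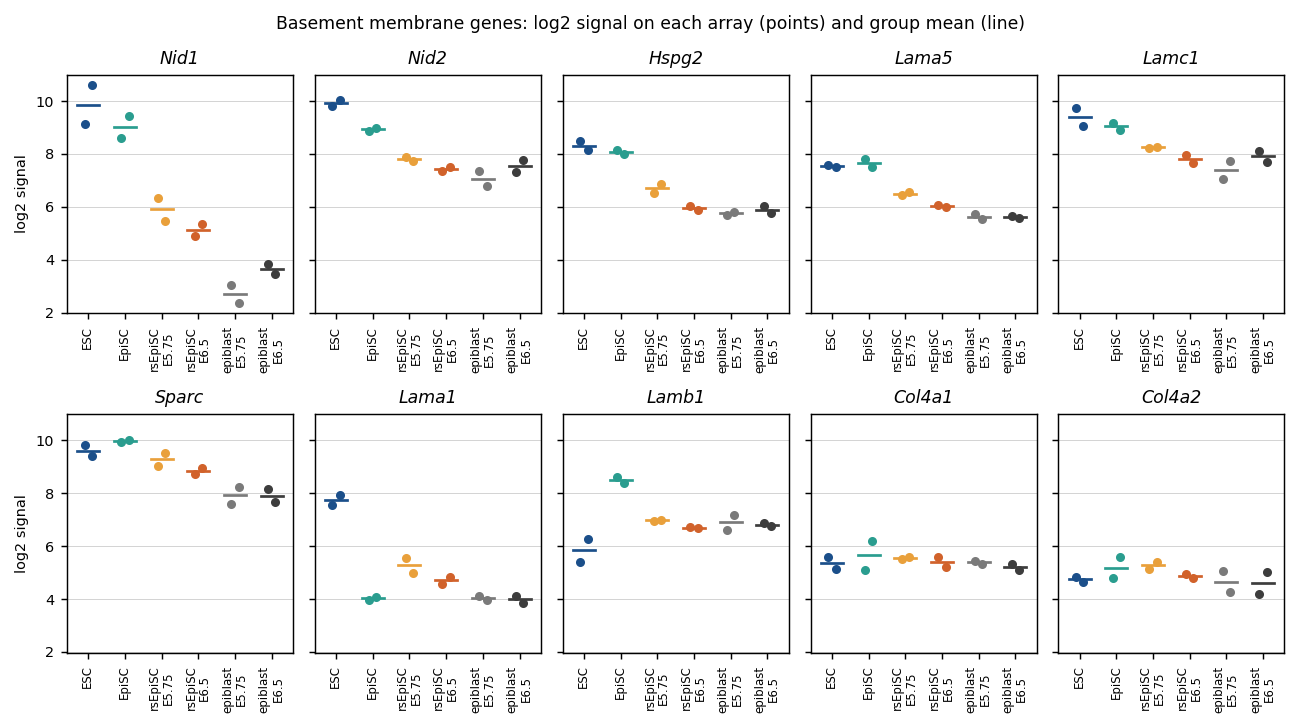
Log2 signal (vertical axis) of each of the 10 basement membrane genes in the 6 groups (horizontal axis), with 1 point per array and a line at the group mean of 2 arrays. Nid1 spans 2.38 to 10.59, while Col4a1 stays between 5.10 and 6.20 on all arrays.

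Every pair of groups was compared with limma on group means over all 12 arrays, with p-values adjusted by Benjamini-Hochberg over all 22180 genes. A difference passed at an adjusted p under 0.05, and errors are standard errors of the fit. Many comparisons share a group, so their calls are given side by side and not overlapped. For each gene the 6 groups were also ordered by mean, which gives 50 pairs of neighbouring groups over the 10 genes. Only 8 of the 50 pairs passed, and in 26 the arrays overlapped, so most steps between neighbours below are unresolved. Of all genes, 0.0225% to 24.0% passed in the pairs of groups involved. Pairs not described further below are E6.5 epiblast against EpiSC, where 20.7% of all genes passed, and against rsEpiSC E5.75, where 17.3% did. In E5.75 epiblast against rsEpiSC E6.5, 16.1% passed. The count of 8 fell to between 1 and 5 without 1 array at a time, if the array was of EpiSC or of either rsEpiSC group.

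The laminin chains come first. Lama1 encodes the alpha1 chain, found in the earliest embryonic laminins. It gave 7.54 and 7.93 in ESC, 5.56 and 5.0 in rsEpiSC E5.75, and 4.58 and 4.85 for rsEpiSC E6.5. Its signal was 3.98 and 4.09 in EpiSC, 4.12 and 3.95 in epiblast at E5.75, and 4.13 and 3.85 at E6.5. ESC stood above all other groups, rsEpiSC E5.75 came next, and EpiSC and tissue overlapped. All EpiSC and tissue values were below the median signal of their array, so the Lama1 folds against these groups are ratios to a low signal. EpiSC were lower than ESC by 13.0-fold (log2 difference -3.70 ± 0.27, adjusted p = 8.03e-06). rsEpiSC E5.75 were 5.49-fold below ESC (-2.46 ± 0.27, adjusted p = 0.000118) and 2.36-fold above EpiSC (1.24 ± 0.27, adjusted p = 0.0247). The step from rsEpiSC E5.75 to rsEpiSC E6.5, -0.56 ± 0.27, did not pass (adjusted p = 1).

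Lama5 encodes the alpha5 chain, the other alpha chain of early embryonic laminins. Its values were 7.60 and 7.50 in ESC and 7.80 and 7.51 in EpiSC. They were 6.44 and 6.56 in rsEpiSC E5.75, 6.06 and 6.00 for rsEpiSC E6.5, 5.73 and 5.53 in E5.75 epiblast and 5.64 and 5.56 in E6.5 epiblast. ESC and EpiSC overlapped, as did both tissue groups, and the rsEpiSC groups lay between them without overlap. The log2 difference of rsEpiSC E5.75 from EpiSC was -1.15 ± 0.24 (adjusted p = 0.0189), that from ESC -1.05 ± 0.24 (adjusted p = 0.0155). Against E5.75 epiblast, rsEpiSC E5.75 were 1.83-fold higher (adjusted p = 0.0253) and EpiSC 4.06-fold higher (adjusted p = 0.000213). The alpha chains thus parted in EpiSC, whose arrays overlapped with ESC for Lama5 and with tissue for Lama1.

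Lamb1 encodes the beta1 chain, which pairs with either alpha chain. Its signal was 8.63 and 8.37 in EpiSC and 5.41 and 6.26 in ESC. It was 6.96 and 7.00 in rsEpiSC E5.75, 6.74 and 6.67 for rsEpiSC E6.5, 6.60 and 7.19 in E5.75 epiblast and 6.86 and 6.76 in E6.5 epiblast. EpiSC were above and ESC below all other arrays, with the rest in a narrow band. EpiSC exceeded ESC by 6.33-fold (2.66 ± 0.31, adjusted p = 0.000271), and rsEpiSC E5.75 were 2.87-fold below EpiSC (-1.52 ± 0.31, adjusted p = 0.0179). rsEpiSC E5.75 and E5.75 epiblast differed by 0.08 ± 0.31, which did not pass (adjusted p = 0.871). The smaller differences of Lamb1 from ESC were less stable. E5.75 epiblast was 1.06 ± 0.31 above ESC (adjusted p = 0.0323), but this passed in only 6 of 12 fits that each left out an array. It did not pass without ESC replicate 1 (0.64, adjusted p = 0.203), E5.75 epiblast replicate 2 or any rsEpiSC array.

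Lamc1 encodes the gamma1 chain, shared by nearly all laminins of the early embryo. It was at 9.72 and 9.06 in ESC, 9.18 and 8.90 in EpiSC, and 8.23 and 8.28 in rsEpiSC E5.75. It was at 7.95 and 7.66 in rsEpiSC E6.5, 7.07 and 7.73 in E5.75 epiblast, and 8.11 and 7.71 in E6.5 epiblast. ESC overlapped with EpiSC, and rsEpiSC E6.5 overlapped with both tissue groups. No neighbouring pair in its order passed. The wider differences did: EpiSC were 3.12-fold above E5.75 epiblast (1.64 ± 0.30, adjusted p = 0.00272) and rsEpiSC E5.75 were 2.19-fold below ESC (-1.13 ± 0.30, adjusted p = 0.0309).

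The nidogens bind the laminin gamma1 chain and link it to type IV collagen. Nid1 covered the widest range of the 10 genes, 7.14 between its extreme group means. It read 9.12 and 10.59 in ESC, 8.62 and 9.42 in EpiSC, and 6.34 and 5.48 in rsEpiSC E5.75. It read 4.91 and 5.36 in rsEpiSC E6.5, 3.06 and 2.38 in E5.75 epiblast, and 3.84 and 3.46 in E6.5 epiblast. ESC and EpiSC overlapped, the rsEpiSC groups lay in between, and tissue was lowest with no overlap. All 4 tissue values were below the median signal of their array, 4.58 to 4.70, so the folds against tissue are ratios to a low signal.

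EpiSC exceeded E5.75 epiblast 78.9-fold in Nid1 (6.30 ± 0.48, adjusted p = 2.17e-05), and rsEpiSC E5.75 exceeded it 9.15-fold (3.19 ± 0.48, adjusted p = 0.00116). rsEpiSC E5.75 were 8.63-fold below EpiSC (-3.11 ± 0.48, adjusted p = 0.00329), with -2.68 and an adjusted p of 0.0548 without rsEpiSC E5.75 replicate 2. A further Nid1 probe set gave smaller differences. There EpiSC exceeded E5.75 epiblast by 2.25 ± 0.55 (adjusted p over all probe sets = 0.0272). rsEpiSC E5.75 exceeded it by only 0.57 ± 0.55 (adjusted p = 0.508) and lay below EpiSC by 1.68 ± 0.55 (log2 difference -1.68, adjusted p = 0.27). Both probe sets put ESC, EpiSC, rsEpiSC E5.75 and rsEpiSC E6.5 in that order and above tissue in mean. They order the tissue stages differently and give different sizes. The Nid1 folds given above and below belong to the brighter probe set.

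Nid2 had a smaller range. It was at 9.82 and 10.02 in ESC, 8.88 and 8.98 in EpiSC, 7.89 and 7.75 in rsEpiSC E5.75, and 7.37 and 7.52 for rsEpiSC E6.5. In tissue it was 7.35 and 6.80 at E5.75 and 7.31 and 7.77 at E6.5. ESC, EpiSC and rsEpiSC E5.75 were ordered without overlap, and E6.5 epiblast overlapped with both rsEpiSC groups. The steps from ESC to EpiSC (EpiSC 1.98-fold lower, -0.99 ± 0.26, adjusted p = 0.0422) and from EpiSC to rsEpiSC E5.75 (2.16-fold lower, -1.11 ± 0.26, adjusted p = 0.0331) passed. The former passed in only 4 of 12 fits that each left out an array, with adjusted p-values up to 0.189. The latter passed in 6 of 12, with adjusted p-values up to 0.244, and did not pass without an array of EpiSC or of either rsEpiSC group. ESC exceeded E5.75 epiblast by 7.19-fold, with E5.75 epiblast at -2.85 ± 0.26 relative to ESC (adjusted p = 3.42e-05).

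Col4a1 and Col4a2 encode the chains of the widespread type IV collagen network. Col4a1 ranged from 5.10 to 6.20 and Col4a2 from 4.19 to 5.59 over the 12 arrays. The largest spread within a group was in EpiSC for Col4a1, at 5.10 and 6.20, and the highest Col4a2 value, 5.59, was on the same array. Group means spanned 0.44 for Col4a1 and 0.67 for Col4a2, against pooled standard deviations within groups of 0.37 and 0.43. None of the 15 pairs of groups passed for either gene, the smallest adjusted p being 0.388 for Col4a1 and 0.235 for Col4a2. The standard errors of a difference were 0.34 and 0.37, so small differences could not be resolved with these arrays. In the RefSeq annotation of GRCm38.p6 the gene records of the pair meet head to head on chromosome 8 and share 85 bases, and their signals correlated at r = 0.62 over 12 arrays.

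Hspg2 encodes perlecan, a heparan sulfate proteoglycan that binds laminin, nidogens and collagen. Its values were 8.48 and 8.14 in ESC, 8.13 and 7.99 in EpiSC, and 6.53 and 6.86 in rsEpiSC E5.75. They were 6.02 and 5.87 in rsEpiSC E6.5, 5.69 and 5.81 in E5.75 epiblast, and 6.02 and 5.76 in E6.5 epiblast. ESC and EpiSC were close, rsEpiSC E5.75 lay alone in the middle, and rsEpiSC E6.5 overlapped with tissue of its stage. rsEpiSC E5.75 were 2.58-fold below EpiSC (-1.37 ± 0.26, adjusted p = 0.0106) and 1.92-fold above E5.75 epiblast (0.94 ± 0.26, adjusted p = 0.0233). rsEpiSC E6.5 were 4.34-fold below EpiSC (-2.12 ± 0.26, adjusted p = 0.000839) and differed from E6.5 epiblast by 0.06 ± 0.26 (adjusted p = 0.913).

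Sparc encodes a collagen-binding matricellular protein abundant in basement membranes of the early embryo. It was at 9.81 and 9.40 in ESC, 9.95 and 10.01 in EpiSC, 9.04 and 9.52 in rsEpiSC E5.75, and 8.74 and 8.96 for rsEpiSC E6.5. Tissue gave 7.59 and 8.25 at E5.75 and 8.16 and 7.66 at E6.5, below every array of the lines. This was the 1 gene to pass in rsEpiSC E6.5 against E6.5 epiblast (1.92-fold higher, 0.94 ± 0.28, adjusted p = 0.0495). rsEpiSC E5.75 were 2.57-fold above E5.75 epiblast (1.36 ± 0.28, adjusted p = 0.00672), and EpiSC 4.16-fold (2.06 ± 0.28, adjusted p = 0.000519). The step from EpiSC to rsEpiSC E5.75, -0.70 ± 0.28, did not pass (adjusted p = 0.278).

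Nid1, Lama5, Hspg2 and Sparc were among the genes that moved together, and the 100 bases before their RefSeq gene records are shown with those of Lamb1, which followed another order. RefSeq's promoter table (GRCm38.p6) held 7 of the 10 genes. It matched no entry for Nid2, Lama1 and Lamc1. The stretches of Col4a1 and Col4a2 are among the 7 counted below but are not shown, since each lies in the gene record of the other. Both come from the same locus. Sequences run 5′ to 3′ on the gene's strand, and capitals mark a GC box, GGGCGG or its reverse complement CCGCCC.
Nid1, chr13:13437502-13437601, plus strand: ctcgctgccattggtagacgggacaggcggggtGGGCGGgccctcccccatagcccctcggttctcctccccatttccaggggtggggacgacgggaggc
Lama5, chr2:180225905-180226004, minus strand: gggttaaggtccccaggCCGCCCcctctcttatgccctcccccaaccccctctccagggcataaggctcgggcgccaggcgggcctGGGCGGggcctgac
Hspg2, chr4:137468651-137468750, plus strand: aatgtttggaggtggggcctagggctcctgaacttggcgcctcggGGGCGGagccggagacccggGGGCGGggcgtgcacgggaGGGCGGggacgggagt
Sparc, chr11:55420081-55420180, minus strand: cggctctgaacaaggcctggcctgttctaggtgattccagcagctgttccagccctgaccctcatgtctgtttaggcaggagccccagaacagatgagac
Lamb1, chr12:31265046-31265145, plus strand: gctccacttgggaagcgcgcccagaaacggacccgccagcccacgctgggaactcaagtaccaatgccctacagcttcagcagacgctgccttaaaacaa

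The Nid1 stretch held 1 GC box, that of Lama5 2 and that of Hspg2 3, while those of Sparc and Lamb1 held none. Over all 23203 such stretches of the table, 22.6% held at least 1 GC box on either strand, against 4 of the 7 member stretches. GC content was 71% for Nid1, 73% for Lama5 and 74% for Hspg2, and 59% for Lamb1 and 57% for Sparc, against a median of 53% over all stretches. CACCC or GGGTG was in 26.2% of all stretches and in 3 of the 7, CCAAT or ATTGG in 19.9% and in 4, and GATAA or TTATC in 9.29% and in none of the 7. These are letter matches and not measured binding sites. The Nid1 stretch overlaps the pseudogene Gm7426, the Lama5 stretch the long noncoding RNA Gm52542, and the Lamb1 stretch the long noncoding RNA Gm32899.

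The comparisons are now taken in turn over all members. EpiSC against ESC sets post-implantation lines beside naive ones. The lines differ in both stage of derivation and medium, whose parts cannot be told apart. Of the 10 genes, 1 was higher in EpiSC, Lamb1, and 2 were lower, Lama1 and Nid2, where 6.29% of all genes passed, 3.60% higher and 2.70% lower. The median difference was -0.07, with 0.00 over all genes, and 5 members were positive and 5 negative. Lamb1 and Lama1 passed in each of the 12 fits that left out an array.

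rsEpiSC E5.75 against EpiSC compares lines of a shared stage in different media. In rsEpiSC, 5 members were lower (Nid1, Nid2, Lama5, Lamb1 and Hspg2) and 1, Lama1, was higher, where 3.87% of all genes passed, 2.31% lower and 1.56% higher. The median was -0.95, against 0.02 over all genes. The count of 6 depended on single arrays: it was 1 without rsEpiSC E5.75 replicate 1, rsEpiSC E5.75 replicate 2 or EpiSC replicate 1, and 3 without EpiSC replicate 2. The gene left was Nid1 in the first and the last of those 3 fits with a count of 1, and Lama1 without rsEpiSC E5.75 replicate 2. The log2 differences moved less than the calls, staying between -1.53 and -1.20 for Hspg2 and between -1.18 and -1.04 for Nid2.

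rsEpiSC E6.5 against EpiSC was added after the values were seen. Stage of derivation and medium both differ in it, as in each comparison of a line with ESC, and cannot be told apart. Here 7 members were lower and none higher: Nid1, Nid2, Lama5, Lamb1, Lamc1, Hspg2 and Sparc, where 3.89% of all genes passed, 2.56% lower and 1.33% higher. The median was -1.36, against 0.02 over all genes. Without an array of rsEpiSC E6.5 the count was 3 (Nid1, Lama5 and Hspg2), and without EpiSC replicate 1 it was 4.

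rsEpiSC E5.75 against ESC had 6 members lower (Nid1, Nid2, Lama1, Lama5, Lamc1 and Hspg2) and 1 higher, Lamb1, where 10.3% of all genes passed, 4.80% lower and 5.49% higher. The median was -1.09, against 0.02 over all genes. Lamb1 was at 1.14 ± 0.31 (adjusted p = 0.0374). Without ESC replicate 1 or either rsEpiSC E5.75 array, 4 members passed, Nid1, Nid2, Lama1 and Hspg2. rsEpiSC E6.5 against ESC, likewise looked at after the values were seen, had 6 members lower and none higher, where 8.96% of all genes passed, 4.55% lower and 4.41% higher.

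Within the rsEpiSC lines, E6.5 against E5.75 gave no member that passed by limma, where 0.0857% of all genes did. All 10 differences were negative, with a median of -0.44 against -0.01 over all genes. The largest in size were Nid1 at -0.78 ± 0.48 and Hspg2 at -0.75 ± 0.26, and only Hspg2 had an unadjusted p under 0.05 (adjusted p = 0.695), as had 4.66% of all genes. The arrays of the stages did not overlap for 9 of the 10 genes, Col4a1 being the exception, nor did they for 43.4% of all genes.

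In tissue, E6.5 against E5.75 also gave no member that passed by limma, where 0.0225% of all genes passed. No member had an unadjusted p under 0.05 either, a threshold at which the share of all genes was not counted for tissue. The median was -0.02. The largest differences were Nid1 at 0.93 ± 0.48 (adjusted p = 0.449) and Lamc1 at 0.52 ± 0.30 (adjusted p = 0.506). An interaction term compared the stage difference of the rsEpiSC lines with that of tissue, and 0 of 10 members passed, where 0.00902% of all genes did. It was negative for 9 of them, with a median of -0.48 against 0.02 over all genes. An unadjusted p under 0.05 was found for 4 members and for 8.65% of all genes.

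Lines were also set against tissue of their stage. In EpiSC against E5.75 epiblast, 7 members were higher and none lower, where 24.0% of all genes passed, 12.6% higher and 11.4% lower. The 7 were Nid1, Nid2, Lama5, Lamb1, Lamc1, Hspg2 and Sparc, at 1.60 to 6.30, and the median of all 10 was 1.75 against -0.19 over all genes. All 7 passed in each fit without 1 array. Lama1 was at 4.04 in both groups (adjusted p = 0.996).

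In rsEpiSC E5.75 against E5.75 epiblast, 5 were higher and none lower, where 21.5% of all genes passed, 11.5% higher and 10.0% lower. The 5 were Nid1, Lama1, Lama5, Hspg2 and Sparc. All 10 differences were positive, with a median of 0.86 against -0.16 over all genes. Nid2 at 0.75 ± 0.26 (adjusted p = 0.0571) and Lamc1 at 0.86 ± 0.30 (adjusted p = 0.0589) fell just short. Without rsEpiSC E5.75 replicate 1 the count was 2 (Nid1 and Sparc), and without replicate 2 it was also 2 (Nid1 and Lama1). Quantile normalization, which removes the compression of the tissue arrays, left 3 (Nid1, Lama1 and Sparc), and 2 members then had a negative difference. The members' median was then 0.53. That scaling moved the median of all genes from -0.16 to -0.03 in this comparison and from -0.19 to -0.05 in EpiSC against E5.75 epiblast.

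In rsEpiSC E6.5 against E6.5 epiblast, Sparc alone passed, where 12.5% of all genes did, 6.72% higher and 5.78% lower. The median was 0.22, against -0.10 over all genes, with 7 members positive and 3 negative. With quantile normalization the median was 0.07, with 5 positive and 5 negative, and no member passed. Nid1 was at 1.49 ± 0.48 (adjusted p = 0.0645). Sparc passed in 4 of the 12 fits without an array, with adjusted p-values up to 0.257, and Nid1 passed besides it when either ESC array was left out. Sparc did not pass without an array of EpiSC, of rsEpiSC E5.75 or of either group compared.

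Tissue was finally set against ESC, in comparisons also added after the values were seen. At E5.75, 7 members were lower and 1, Lamb1, higher, where 21.5% of all genes passed, 10.8% lower and 10.6% higher. At E6.5 the counts were again 7 and 1, where 19.5% passed, 9.76% lower and 9.77% higher. The medians were -1.95 and -1.82, against 0.18 and 0.14 over all genes. Nid1 was 141-fold below ESC at E5.75 (-7.14 ± 0.48, adjusted p = 4.09e-06) and Lama1 13.0-fold below (-3.70 ± 0.27, adjusted p = 7.23e-06). The further Nid1 probe set gave a much smaller difference at E5.75, -3.40 ± 0.55 (adjusted p over all probe sets = 0.00578). Lamb1 at E6.5, 0.97 ± 0.31 (adjusted p = 0.0478), passed in 3 of the 12 fits without an array.

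**Figure D2:**
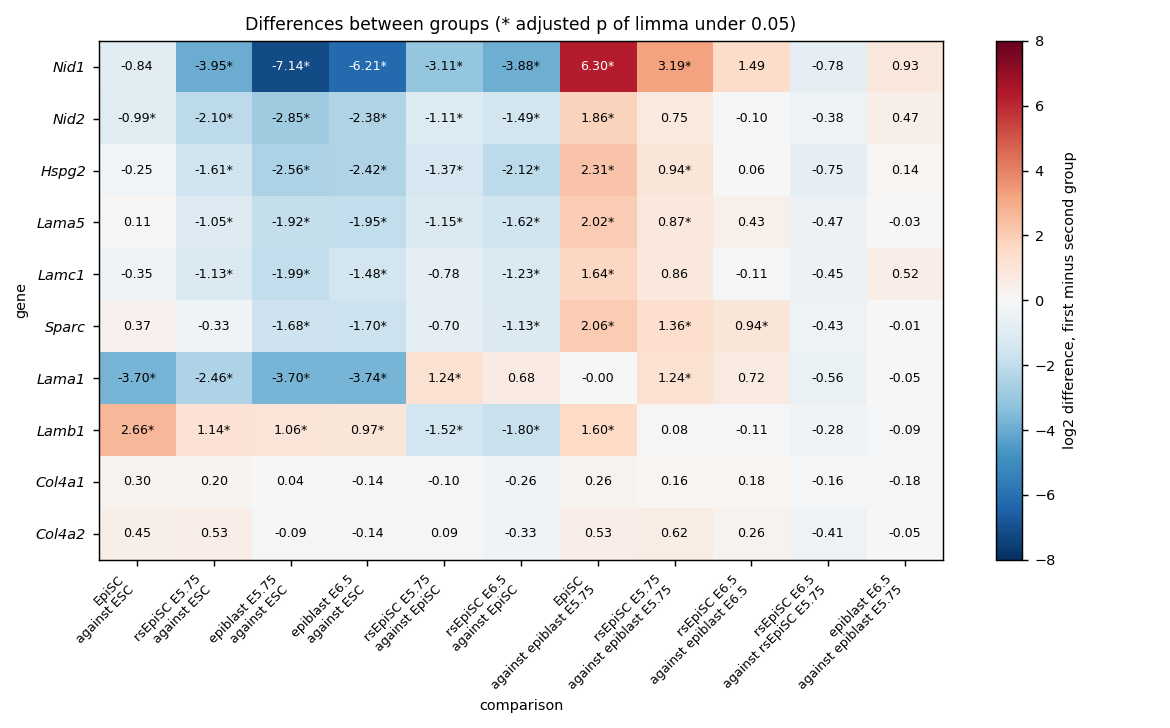
Log2 difference of each gene (rows) in each of 11 comparisons (columns), first minus second group, red for higher and blue for lower in the first group, with an asterisk where limma's adjusted p was under 0.05. The rows of Col4a1 and Col4a2 hold no asterisk, and Nid1 reaches -7.14 and 6.30.

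As a description, signals of the members were correlated over the 12 arrays, which share 6 groups of 2, so that group differences make up most of each r. Of the 45 pairs, 14 had r over 0.8 and 4 were below 0, with a median of 0.37. Nid1, Nid2, Lama5, Lamc1, Hspg2 and Sparc correlated with each other at 0.71 to 0.98. The closest pair was Lama5 and Hspg2 at 0.98, followed by Nid1 with Lama5 at 0.96 and Lamc1 with Hspg2 at 0.96. Lama1 and Lamb1, the chains with opposite orders in ESC and EpiSC, were at -0.64.

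**Figure D3:**
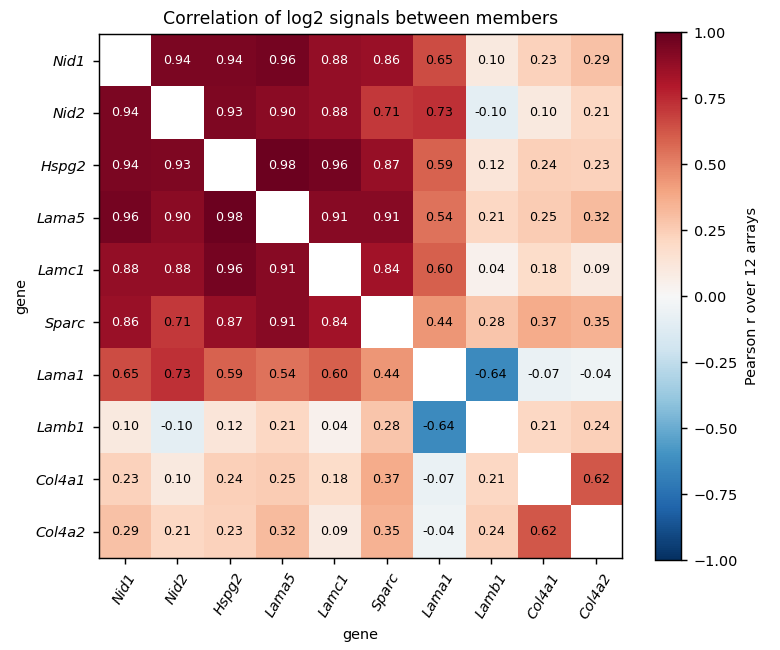
Pearson correlation of log2 signal between the 10 genes over 12 arrays, with red for positive and blue for negative values. The block of Nid1, Nid2, Hspg2, Lama5, Lamc1 and Sparc holds 0.71 to 0.98, and Lama1 with Lamb1 gives -0.64.

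The genes outside the list whose signal was most like the mean of the 10 genes over 12 arrays were Mfge8 (r = 0.984), which encodes a secreted phosphatidylserine-binding protein, Ckb (0.978), a creatine kinase, Dync1h1 (0.976), a dynein heavy chain, Atp6v1a (0.971), a proton pump subunit, and Lamp1 (0.966), a lysosomal membrane protein. That mean itself correlated at 0.99 with Nid1, the gene of widest range, and at 0.90 to 0.98 with Nid2, Lama5, Lamc1, Hspg2 and Sparc. Its correlation was 0.64 with Lama1, 0.32 with Col4a2, 0.28 with Col4a1 and 0.10 with Lamb1. Likeness to the mean is therefore not likeness to these last genes. Rankings of likeness leave out predicted genes and small RNAs. Jam2, a junctional adhesion molecule, was most like Lama1 (0.963). Capzb (0.986), an actin capping subunit, was most like Sparc. Ostf1 was most like Nid2 (0.971) and Csta2 most like Col4a1, at the lower value of 0.875.

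Since fibroblast feeders and extraembryonic endoderm make basement membrane proteins, markers of both were read on each array. The mean of 16 fibroblast markers was 4.15 and 4.34 in ESC, 5.20 and 5.39 in EpiSC, 5.02 and 5.17 in rsEpiSC E5.75, 4.54 and 4.61 for the E6.5 lines and 4.34 to 4.51 in tissue. ESC replicate 2 and E6.5 epiblast replicate 2 were both at 4.34, and the means in EpiSC and rsEpiSC E5.75 were above those in tissue. In EpiSC against ESC, 4 of the 16 were higher and none lower, among them Acta2, a smooth muscle actin, and Tagln. Tagln stood at 8.94 and 9.44 in EpiSC and at 4.91 and 4.73 in ESC. In rsEpiSC E5.75 against EpiSC, none of the 16 was higher and 2 lower. Against E5.75 epiblast, 6 were higher and 1 lower in EpiSC, and 5 higher and 1 lower in rsEpiSC E5.75. Of the 16, 1 was higher and 1 lower in rsEpiSC E6.5 against E6.5 epiblast. Of all genes, 6.29% passed in EpiSC against ESC and 3.87% in rsEpiSC E5.75 against EpiSC. Against tissue of their stage, 24.0% passed for EpiSC, 21.5% for rsEpiSC E5.75 and 12.5% for rsEpiSC E6.5. On the same list, Col1a2 was at 6.29 and 9.02 in EpiSC and 7.70 and 7.88 in rsEpiSC E5.75, against 3.21 to 5.13 elsewhere. Mmp2 averaged 7.23 in EpiSC and 8.30 in rsEpiSC E5.75, against 5.70 in ESC. Col1a1 did not exceed 5.31 on any array except EpiSC replicate 2, at 6.67, and Postn did not exceed 4.17. Other genes of the list were higher in tissue. Dcn was at 4.64 to 5.56 in tissue and at 2.67 to 3.87 in the lines. Lum and Fap had their highest means in E5.75 epiblast, 3.27 and 3.16, against 2.76 or less in the other groups. The part of feeder cells in the differences from EpiSC and rsEpiSC E5.75 was not tested. Of 5 pluripotency markers, 4 were lower and 0 higher in rsEpiSC E5.75 than in E5.75 epiblast, with a median of -1.97. Sox2 was the exception, at a mean of 10.12 against 9.69. The share of pluripotent cells in the samples was not tested.

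The mean of 9 parietal endoderm markers ranged from 4.45 to 4.88 and that of 14 visceral endoderm markers from 4.22 to 4.67 over all arrays. Of the 9 parietal endoderm genes, 1 was higher in rsEpiSC E5.75 than in ESC and than in E5.75 epiblast, and none passed in EpiSC against ESC or against E5.75 epiblast. None of the visceral endoderm genes passed in those comparisons. In rsEpiSC E6.5 against ESC, 3 of the 9 parietal endoderm genes and 1 of the 14 visceral endoderm genes were higher, where 8.96% of all genes passed. Gata4, Gata6, Dab2 and Sox17 are on both lists, so a gene can count in each and the lists are not separate. The shares of all genes in the other comparisons are given above. The highest value on the parietal list was that of Plat, the tissue plasminogen activator, at 6.84 and 7.01 in rsEpiSC E5.75 against 4.43 and 4.19 in ESC (2.61 higher, adjusted p = 0.00157). Dab2 and Stra6 each reached 6.18 and Gata4 6.10, while Sox7 did not exceed 4.32 and Thbd 4.96 on any array. The part of endoderm cells in the members' differences was not tested.

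**Figure D4:**
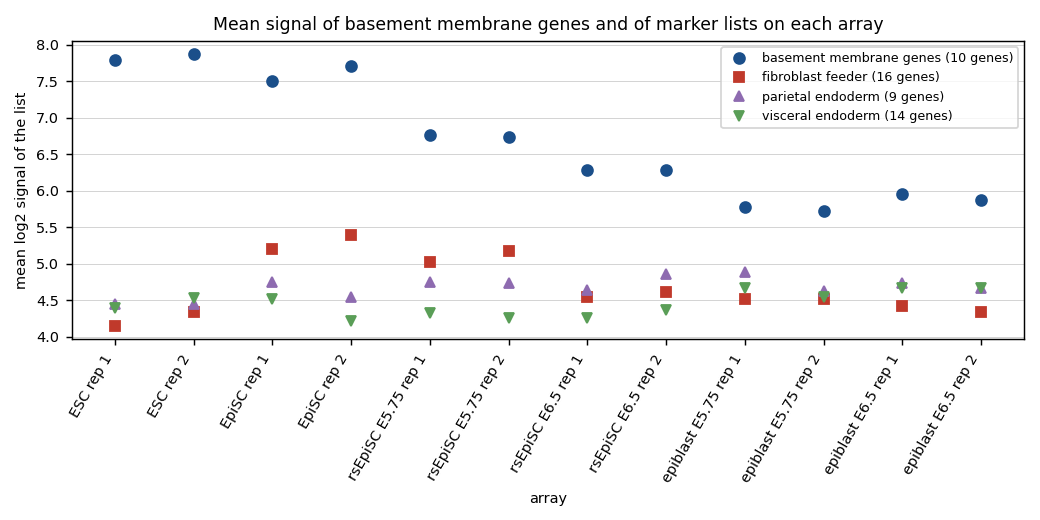
Mean log2 signal (vertical axis) of the 10 basement membrane genes and of 3 marker lists on each of the 12 arrays (horizontal axis), with 1 symbol per list and array. The basement membrane mean runs from 7.87 in ESC to 5.72 in E5.75 epiblast, the fibroblast mean peaks at 5.39 in EpiSC, and both endoderm means stay between 4.22 and 4.88.

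Other genes of the same matrix were read from fixed lists. The shares of all genes that passed in each comparison are those given above. Of 6 further laminin chains measured, none passed in EpiSC against ESC or rsEpiSC E5.75 against EpiSC. Lamb2, the beta2 chain, passed against tissue: it was 2.05-fold higher in EpiSC than in E5.75 epiblast (adjusted p = 0.0106), 2.20-fold in rsEpiSC E5.75 (adjusted p = 0.00788) and 2.40-fold for rsEpiSC E6.5 against E6.5 epiblast (adjusted p = 0.00754). Of the 4 further type IV collagen chains, none passed in any comparison made, and the largest difference was 0.72 for Col4a6 in rsEpiSC E6.5 against EpiSC (adjusted p = 0.113).

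Among 17 other matrix components, 5 were higher and 2 lower in EpiSC than in ESC, with a median of 0.21. Tinagl1, a matricellular protein of basement membranes, was at 8.01 and 8.17 in EpiSC and at 3.78 to 5.01 on all other arrays. It was 8.97-fold above ESC (adjusted p = 7.04e-06), and rsEpiSC E5.75 were below EpiSC by a log2 difference of -4.02 ± 0.23 (adjusted p = 6.73e-06). Fn1, fibronectin, had another order: 10.81 and 11.61 in ESC, 8.83 and 9.49 in EpiSC, 8.87 and 8.68 in rsEpiSC E5.75, and 6.31 and 6.84 in E5.75 epiblast. It was 4.15-fold lower in EpiSC than in ESC (adjusted p = 0.00182). Agrin (Agrn), a proteoglycan that binds laminin, was 1.87 ± 0.25 higher in EpiSC than in E5.75 epiblast (adjusted p = 0.000466) and 1.70 ± 0.25 in rsEpiSC E5.75 (adjusted p = 0.00108). In both comparisons 7 of the 17 were higher, with 0 lower in the former and 1 in the latter.

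Of 15 receptors of the matrix, 5 were higher and none lower in EpiSC than in ESC, and 2 were lower in rsEpiSC E5.75 than in EpiSC. Bcam, a receptor for laminins with the alpha5 chain, was at 9.46 and 9.29 in EpiSC, 6.97 and 8.17 in ESC, and 7.13 and 7.24 in rsEpiSC E5.75. It was lower in rsEpiSC E5.75 than in EpiSC by a log2 difference of -2.19 ± 0.38 (adjusted p = 0.00602). The laminin-binding integrin subunit Itga3 was lower by -1.83 ± 0.44 (adjusted p = 0.0375). Ddr1, a collagen receptor, stood higher in all lines derived after implantation: its mean was 7.31 in EpiSC, and rsEpiSC had 6.97 at E5.75 and 7.10 at E6.5, against 5.07 in ESC, 4.62 in E5.75 epiblast and 5.53 in E6.5 epiblast. Against E5.75 epiblast, 7 of the 15 were higher and 1 lower in EpiSC, and 5 and 1 in rsEpiSC E5.75.

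Of 10 genes for collagen synthesis measured, 1 was higher in EpiSC than in ESC, the collagen chaperone Serpinh1, and 0 passed in rsEpiSC E5.75 against EpiSC. Serpinh1 was at 8.75 and 8.74 in EpiSC, 8.65 and 8.89 in rsEpiSC E5.75, 6.68 and 6.91 in ESC and 4.95 and 5.35 in E5.75 epiblast. Against E5.75 epiblast it differed by 3.60 ± 0.27 in EpiSC (adjusted p = 1.83e-05) and by 3.62 ± 0.27 in rsEpiSC E5.75 (adjusted p = 2.05e-05), while Col4a1 and Col4a2 passed in neither. In those comparisons 6 and 5 of the 10 were higher and 0 lower.

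Of 9 remodelling genes measured, 5 were higher in EpiSC than in ESC and none lower. Timp1, an inhibitor of matrix proteases, was at 9.70 and 9.39 in ESC, 8.81 and 9.47 in EpiSC, 6.00 and 6.15 in rsEpiSC E5.75 and 4.97 and 4.65 in E5.75 epiblast. rsEpiSC E6.5 had 7.14 and 6.82, above rsEpiSC E5.75 without overlap, but 0 of the 9 genes passed between these groups. The arrays of the 2 groups did not overlap for 43.4% of all genes. rsEpiSC E5.75 were below EpiSC by -3.07 ± 0.29 (adjusted p = 0.000152). Mmp2, a gelatinase also on the fibroblast list, averaged 8.30 for the E5.75 and 7.95 for the E6.5 rsEpiSC lines, against 5.47 and 5.15 in tissue of the same stages.

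**Figure D5:**
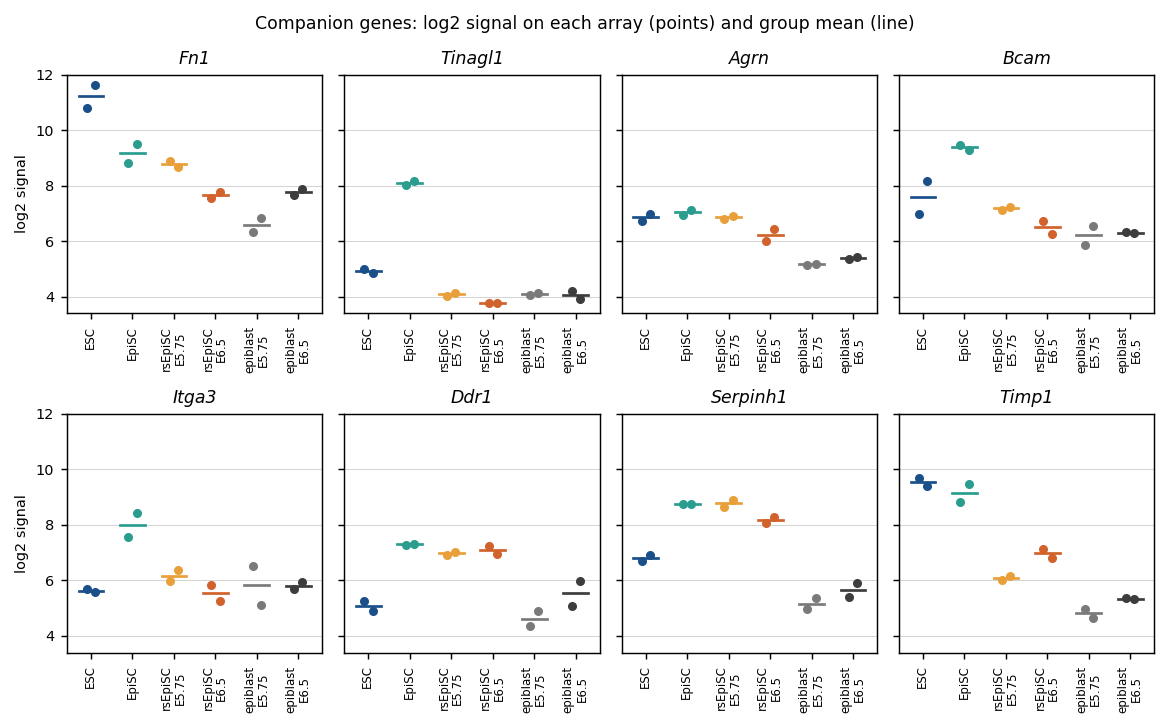
Log2 signal (vertical axis) of 8 genes of basement membranes, their receptors, collagen folding and remodelling in the 6 groups (horizontal axis), with 1 point per array and a line at the group mean. Tinagl1 is at 8.01 and 8.17 in EpiSC and at 5.01 or less on all other arrays.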

How the data were processed

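The deposited values are log2 signal of 41345 probe sets on 12 arrays, made by the authors; the submitters' processing notes name RMA and oligo, with versions not given in the sources used. The labels' protocol names a human array, but identifiers match a mouse probe set table, which paired 23521 probe sets with 1 symbol, 1814 with several and 16010 with none. The brightest probe set per gene was kept, leaving 22180 genes, with no filter and no further normalization. Columns of samples outside the series numbered 0.

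Groups were fitted with limma 3.58.1 in R 4.3.3 (lmFit on 6 group means, eBayes with trend, residual degrees of freedom 6, prior 5.99), and p-values were adjusted by Benjamini-Hochberg per comparison. Precision is limited by the number of arrays.

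The 10 members and all lists were chosen with earlier results of these data known. All members are named. From each companion list, genes named are among up to 4 with the largest changes that passed and up to 2 that did not, in each comparison. Markers were named from their fixed lists, and likeness is the Pearson correlation over 12 arrays. Its rankings leave out predicted genes (symbols of Gm and a number, or ending in Rik) and small RNAs (Mir, Snor). Alternatives were a block for the replicate number, fits without each array in turn, only the arrays compared, only the 8 cultured arrays, every probe set, the mean over probe sets, a group mean of at least 5, quantile normalization, median centring, array weights and no variance trend.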

Additional observations from a re-analysis of the deposited data

How the results depend on the processing

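Alternatives were run for 12 comparisons. They hold 52 member differences that passed, of which 31 passed under every alternative run, and 0 passed with the opposite sign. The passed differences of the other pairs of groups, rsEpiSC E6.5 against ESC among them, were not rerun one by one. Counts of members passed moved as follows. For rsEpiSC E6.5 against E6.5 epiblast (1 in the reported fit), the count was 0 with the replicate block, every probe set, quantile normalization, median centring or no variance trend, and 2 with only the arrays compared, genes with a group mean of at least 5 or array weights. Without 1 array it ran from 0 to 2. With only the arrays compared, rsEpiSC E5.75 against ESC gave 4 and rsEpiSC E5.75 against E5.75 epiblast gave 3. Quantile normalization also gave 3 in the latter and only genes with a group mean of at least 5 gave 7, Nid2 and Lamc1 being added, and every probe set gave 3 in rsEpiSC E5.75 against EpiSC. Neighbouring pairs passed in 5 cases with the replicate block and in 4 with every probe set, where more features are tested. Without 1 array, counts ran from 1 to 6 for rsEpiSC E5.75 against EpiSC, 4 to 7 against ESC, 2 to 6 against E5.75 epiblast, 3 to 7 for rsEpiSC E6.5 against EpiSC, and 1 to 9 for neighbouring pairs. Such fits hold 1 array in a group, assumed to vary like the other groups. The other causes were not tested.

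Same-numbered arrays did not visibly deviate together. Correlations of their deviations ran from -0.26 to 0.06 over 15 pairs of groups (median -0.00). No pairing by number was seen, but an effect that is small or differs between groups could be missed this way. Besides the counts above, the replicate block gave 5 in place of 7 for rsEpiSC E6.5 against EpiSC (Lamc1 and Sparc lost), 5 in place of 6 for rsEpiSC E5.75 against EpiSC (Nid2 lost), 2 in place of 3 for EpiSC against ESC (Nid2 lost) and 7 in place of 8 for E6.5 epiblast against ESC (Lamb1 lost). It changed no member's call in the other comparisons it was run on. With 2 arrays a group, and no measure of signal over background, small differences and low signals remain unresolved.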
